A study of Mus musculus with 8 samples.

Results

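Accessible chromatin was described at the genes for protein phosphatase subunits, whose symbols begin with Ppp and a digit, in cardiac progenitor cells grown from mouse embryonic stem cells. ATAC-seq, in which the Tn5 transposase cuts and tags open DNA, had been run on the GLI1-FTA line of strain A2Lox.cre. The 8 libraries fall into 3 groups. Untreated cells were taken on day 5 of differentiation (D5, 2 libraries) and on day 7 (D7 control, 3 libraries), and the treated group (D7 GLI1, 3 libraries) received doxycycline at 500 ng/ml for the 48 hours from D5 to D7 to overexpress GLI1, a transcription factor that carries out Hedgehog signals. All libraries come from this 1 line, and no group received doxycycline without GLI1 induction. Each group is represented by 1 pooled peak list, so no difference below has a replicate check and none was tested. That the control list named without a day is the D7 one was inferred, since its file is named as the counterpart of the doxycycline one.

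A peak belonged to a phosphatase gene when its summit had that gene as the nearest protein-coding gene within 100 kb, by RefSeq gene intervals of build mm10, chromosomes 1 to 19 only. The positions of the peaks therefore chose the members, and how many peaks there are is a description. The rule took 772 of 172983 peaks, of which 212 were in the D5 list, 287 in D7 control and 273 in D7 GLI1. Peaks that overlapped within a list were joined into regions, which left 147, 169 and 166 regions. Of 76 autosomal Ppp genes, 72 had a region in at least 1 list (65 at D5, 68 in each D7 list). Over all genes 15909 had one. The 21027 protein-coding genes used include those of chromosomes X and Y, where no regions were counted. The 4 Ppp genes without a region were Ppp1r14d, Ppp1r27, Ppp1r3a, a glycogen-targeting subunit of skeletal muscle, and Ppp3r2, a form of calcineurin B known from testis. The region closest to the limit from inside was 89.1 kb from Ppp3ca at D5 (fold 3.49). In D7 control it was 99.0 kb from Ppp3ca (fold 5.76), and in D7 GLI1 85.9 kb from Ppp1r14bl (fold 19.7). The closest from outside lay 109 kb from Ppp4r3a at D5 (fold 5.81) and in D7 GLI1 (fold 4.21). In D7 control it lay 147 kb from Ppp6c (fold 8.46). Next came, at D5, a region 118 kb from Ppp2r3a (fold 15.2) and, in D7 GLI1, a region 114 kb from Ppp6c (fold 3.86). Beyond 100 kb a Ppp gene was the nearest gene of 10 D5, 9 D7 control and 12 D7 GLI1 regions.

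Serine/threonine phosphatases of this family are assembled from a few catalytic subunits and many partners. Protein phosphatase 1 (PP1, catalytic genes Ppp1c) works through one of a large set of regulatory subunits (Ppp1r) that direct it to glycogen, myosin, the nucleus or other places, or inhibit it. Protein phosphatase 2A (PP2A) joins a catalytic subunit (Ppp2c) and a scaffold (Ppp2r1) with a variable subunit of the B (Ppp2r2), B' (Ppp2r5) or B'' (Ppp2r3) type. Calcineurin (Ppp3) is switched on by calcium and calmodulin and releases NFAT factors into the nucleus, a pathway known for its part in heart valve formation and in hypertrophy, while PP1 and PP2A are known to reverse the phosphorylation of contractile and calcium-handling proteins in heart muscle.

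The 250 bases before the start of 5 genes are printed because they span the range of the start peaks described next. Ppp2r5a and Ppp2ca had some of the highest D7 folds at their starts, with D5 folds below the D5 median, Ppp1r14a had low ones and 5 GC boxes, Ppp6c had a start peak in the D5 list only, and Ppp1r1c had none. The sequences are from RefSeq for mm10 (GRCm38.p6), run 5' to 3' on the gene's strand and end at the base before the start. Capitals mark GC boxes (GGGCGG, or CCGCCC on the other strand), a CCAAT box (here as ATTGG) and a CRE, the binding sequence of CREB (TGACGTCA).
Ppp2r5a, chr1:191397042-191397291, minus strand: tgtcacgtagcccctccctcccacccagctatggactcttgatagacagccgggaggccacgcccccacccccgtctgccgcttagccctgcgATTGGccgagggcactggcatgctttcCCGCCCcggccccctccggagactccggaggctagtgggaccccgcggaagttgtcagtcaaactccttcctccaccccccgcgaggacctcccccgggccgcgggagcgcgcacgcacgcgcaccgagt
Ppp2ca, chr11:52098574-52098823, plus strand: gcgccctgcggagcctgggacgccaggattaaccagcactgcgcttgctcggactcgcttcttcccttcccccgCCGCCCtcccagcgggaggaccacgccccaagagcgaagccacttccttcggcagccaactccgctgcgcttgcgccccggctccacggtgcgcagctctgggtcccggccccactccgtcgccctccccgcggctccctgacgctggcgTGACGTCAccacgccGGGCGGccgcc
Ppp1r14a, chr7:29289070-29289319, plus strand: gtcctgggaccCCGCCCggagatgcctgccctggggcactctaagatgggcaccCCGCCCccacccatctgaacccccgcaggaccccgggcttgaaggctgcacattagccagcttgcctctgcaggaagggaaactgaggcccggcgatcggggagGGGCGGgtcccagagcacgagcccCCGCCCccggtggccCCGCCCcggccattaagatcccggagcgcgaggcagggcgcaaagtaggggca
Ppp6c, chr2:39226350-39226599, minus strand: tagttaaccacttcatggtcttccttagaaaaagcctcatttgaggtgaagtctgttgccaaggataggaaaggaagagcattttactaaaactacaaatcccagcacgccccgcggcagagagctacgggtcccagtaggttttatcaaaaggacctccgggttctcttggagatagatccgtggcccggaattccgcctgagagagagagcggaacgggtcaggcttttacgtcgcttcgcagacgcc
Ppp1r1c, chr2:79707530-79707779, plus strand: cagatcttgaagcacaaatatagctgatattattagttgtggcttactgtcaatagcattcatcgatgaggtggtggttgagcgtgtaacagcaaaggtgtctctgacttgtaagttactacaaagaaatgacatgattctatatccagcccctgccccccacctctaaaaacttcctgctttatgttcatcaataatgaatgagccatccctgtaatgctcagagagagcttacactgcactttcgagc
These stretches hold 24 (Ppp2r5a), 30 (Ppp2ca), 18 (Ppp1r14a), 14 (Ppp6c) and 3 (Ppp1r1c) CG dinucleotides. Neither the Ppp6c nor the Ppp1r1c stretch holds any of the 7 motifs searched.

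Most phosphatase genes had an open start in all 3 lists. Starts were known for 60 of the 76 genes, and 50 of them (83.3%, against 62.5% of 16009 autosomal genes) had a D5 peak with its summit within 1 kb of a start. In D7 control 49 had one (81.7%, against 61.9%), in D7 GLI1 also 49 (81.7%, against 63.3%), and the same 49 were open in all 3 lists (81.7%, against 57.9%). No phosphatase gene had a start peak in only 1 of the D7 lists, against 0.999% of all genes for D7 control alone and 2.42% for D7 GLI1 alone. A start peak was counted by position, whichever gene it was assigned to. Ppp1r15a had 0 peaks of its own at D5 but a start fold of 7.63. At Ppp2r2d the D7 control start fold was 31.3, while its own regions there reached 3.96. Another listed protein-coding start lay within 1 kb for 5 genes: Ppp1r10, Ppp1r15a, Ppp1r3d, Ppp1r7 and Ppp2r3c. Neighbours without a listed start are not in this count. At Ppp1r14b, not among the 5, the D7 control start fold was 35.1, while its own regions there reached 6.66. Starts and promoters were not given in the table for Ppp1ca, Ppp1r15b, Ppp1r16a, Ppp1r17, Ppp1r1a, Ppp1r1b, Ppp1r3b, Ppp1r3e, Ppp1r42, Ppp2cb, Ppp2r2a, Ppp2r2b, Ppp2r5e, Ppp3ca, Ppp3cc and Ppp4r1. Of these 16 genes, 14 had a peak within 1 kb of either end of the gene in all 3 lists, Ppp1r17 in the D5 list only, and Ppp2r2b in none. Such an end peak was counted whichever gene it was assigned to. At Ppp1r1b the end folds were 11.1, 39.6 and 32.6, while its own regions reached 3.54, 6.84 and 8.25. The same share over all genes was not computed.

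The fold used here is the peak caller's enrichment over the list's own background, a value of the authors that orders peaks within a list. Across the phosphatase starts it ran from 4.09 to 15.7 at D5 (median 10.001), from 4.14 to 88.6 in D7 control (median 35.1) and from 3.69 to 90.2 in D7 GLI1 (median 38.3). The D5 folds cannot be set on the scale of the D7 folds. The D5 list held 10302 distinct fold values against 531 in D7 control and 571 in D7 GLI1, its shortest peak was 124 bases against 200, and 978 and 1071 peak numbers were missing from the D7 lists, as after removal of blacklisted peaks, against 0 from D5.

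**Figure D1:**
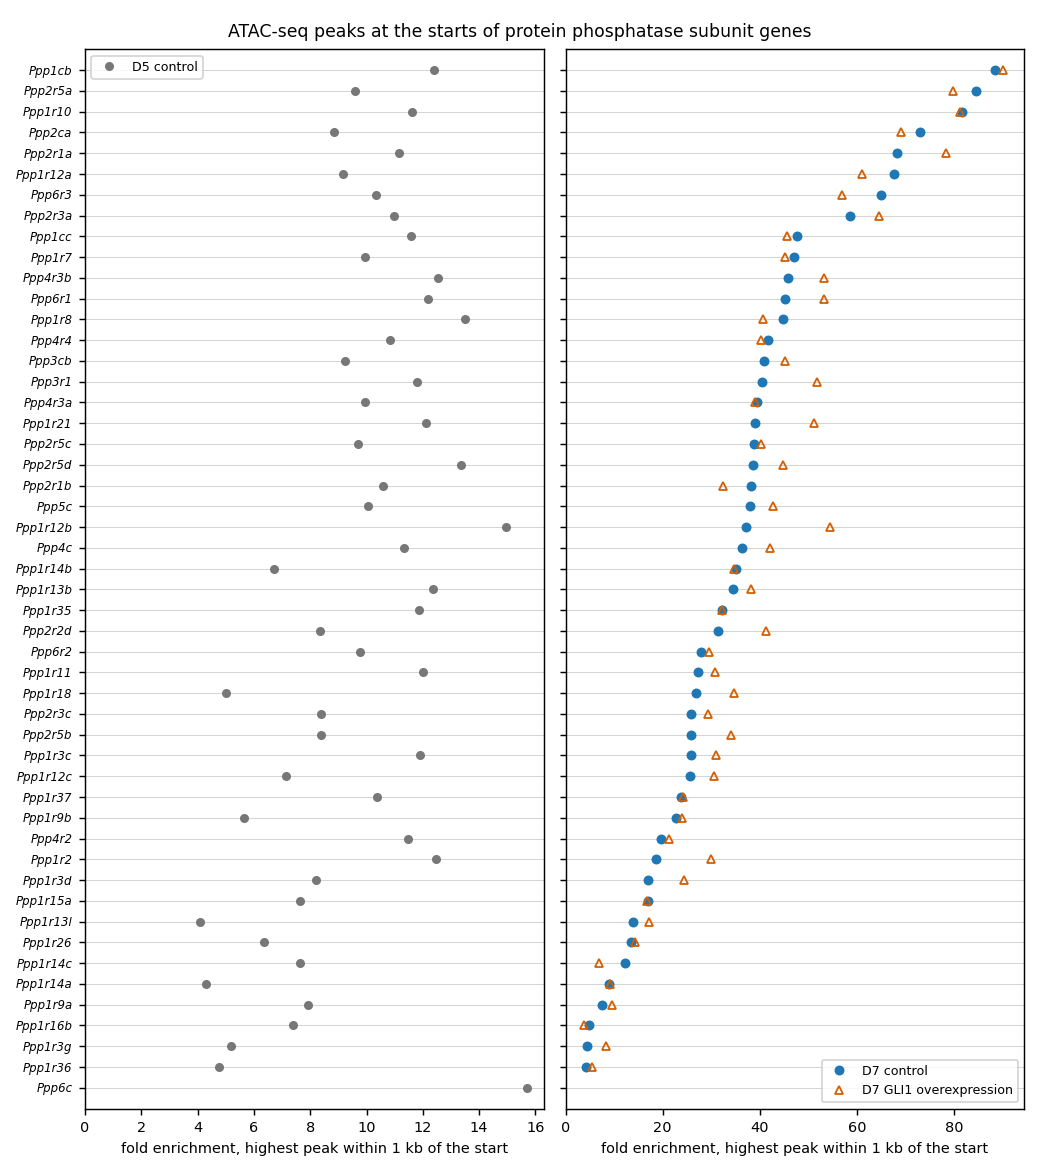
Highest fold enrichment of a peak within 1 kb of the start, one row a gene, for the 50 phosphatase genes with a start peak; the left panel shows D5, the right panel D7 control (filled circles) and D7 GLI1 (open triangles), each list on its own background. Genes run in order of D7 control fold, from Ppp1cb at 88.6 down to Ppp1r36 at 4.14, and Ppp6c has a D5 point only.

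Catalytic and scaffold genes with a D7 start peak ran from the top to the middle of this order; Ppp1ccb, counted with the PP1 catalytic genes, had no start peak in any list. Ppp1cb, a catalytic subunit of PP1 and of myosin phosphatase, had start folds of 12.4 at D5, 88.6 in D7 control and 90.2 in D7 GLI1, the highest of the 49 genes in both D7 lists. Ppp2ca, the main catalytic subunit of PP2A, had 8.83, 73.1 and 69.2 over the promoter printed above, and Ppp2r1a, its scaffold, 11.2, 68.2 and 78.3. Lower in the order were Ppp1cc (11.6, 47.7 and 45.6), Ppp3cb, a catalytic subunit of calcineurin (9.24, 40.9 and 45.3), Ppp5c (10.1, 38.0 and 42.7), Ppp4c (11.3, 36.4 and 42.1) and Ppp2r1b, the other scaffold gene (10.6, 38.2 and 32.5). The catalytic genes without a listed start had end peaks of 11.4, 34.4 and 38.6 at Ppp1ca, 11.2, 18.2 and 30.2 at Ppp2cb, 10.4, 56.7 and 75.7 at Ppp3ca and 7.22, 21.8 and 23.0 at Ppp3cc. The genes given with folds here were open within 1 kb of a listed start, or of an end where no start was listed, in each of the 3 lists.

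Ppp6c, the catalytic subunit of protein phosphatase 6, stood apart. Its start region in the D5 list (chr2:39226132-39226583, mm10, 31 bases upstream of the start) had the highest D5 start fold of the 50 genes, 15.7, and neither D7 list held a region there. In each D7 list, however, 1 peak number is missing between the peaks kept on either side of it, which are 182 kb apart in D7 control and 149 kb apart in D7 GLI1. The lists do not tell whether a peak was taken out there before deposit, so the absence is not read as closure. Its partners Ppp6r1 (12.2, 45.2 and 53.2), Ppp6r2 (9.78, 27.9 and 29.5) and Ppp6r3 (10.3, 65.0 and 56.9) had start peaks in all 3 lists.

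Regulatory genes covered the whole range. Near the top were Ppp2r5a, a B' subunit of PP2A (9.59, 84.6 and 79.9), Ppp1r10, which targets PP1 to the nucleus (11.6, 81.7 and 81.3, within 1 kb of the start of Mrps18b), Ppp1r12a, the myosin-targeting subunit (9.17, 67.7 and 61.1), and Ppp2r3a, a B'' subunit (10.98, 58.7 and 64.6). At the bottom were Ppp1r36 (4.76, 4.14 and 5.44), Ppp1r3g, a glycogen-targeting subunit (5.20, 4.32 and 8.25), Ppp1r16b, a subunit known from endothelium (7.40, 4.86 and 3.69), Ppp1r9a, which encodes the actin-binding protein neurabin (7.92, 7.56 and 9.48), and Ppp1r14a, an inhibitor of myosin phosphatase known from smooth muscle (4.30, 8.82 and 9.13). The 10 genes with a listed start and no start peak in any list were Ppp1ccb, Ppp1r14bl, Ppp1r14d, Ppp1r1c, Ppp1r27, Ppp1r32, Ppp1r3a, Ppp2r2c, Ppp2r3d and Ppp3r2. At Ppp1r16b the D5 peak (chr2:158667052-158667254) and the D7 control peak (chr2:158667535-158667756) did not overlap, so its start counts as open in both lists through different bases.

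The promoters of these genes, taken as 250 bases before to 50 after a start, were rich in CG. Their 73 promoters held a median of 23 CG dinucleotides and 63% G and C, against 14 and 57% over all 19503 promoters. A GC box (GGGCGG, either strand) was in 65.8% of them (Wilson 95% interval 54.3 to 75.6) against 48.1% of all, and the CRE in 6.85% (2.96 to 15.1) against 2.35%. The other shares were 30.1% against 38.0% for CCAAT, 11.0% against 12.4% for TATAAA, 6.85% against 5.40% for the ETS sequence CCGGAAGT and 2.74% against 1.38% for the palindromic NRF1 sequence. The GLI sequence GACCACCCA was in 0 of the 73 (up to 5.0%) against 0.174%, which says only that these letters are not in these windows. Taking for each gene its promoter with the most, the 50 genes with a D5 start peak had a median of 26 CG dinucleotides (8 to 48) and 40 of them a GC box, and the 10 without had 6.5 (1 to 36) and 1 of them a GC box. Ppp2r2c, at 36, was the gene without a start peak at the top of that range. Every gene with more than 1 promoter had a D5 start peak, so only that group could take the higher of several counts. The same split was not made over all genes, so it is not shown to be particular to phosphatase genes. The 5 CRE promoters belonged to Ppp1r12c, Ppp1r15a, which directs PP1 to the translation factor eIF2 alpha, Ppp2ca and Ppp2r2d. Ppp2r2d counts with both of its overlapping promoters, and the intervals treat all 73 promoters as separate.

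GLI1 overexpression was compared with D7 control by presence or absence. A region of the GLI1 list that overlapped no D7 control region by at least 1 base is called gained, and a D7 control region with no overlap in the GLI1 list is called lost. At phosphatase genes 45 of 166 GLI1-list regions were gained (27.1%, Wilson 95% interval 20.9 to 34.3, against 39.2% of all autosomal regions), and 54 of 169 control regions were lost (32.0%, 25.4 to 39.3, against 31.9%). The intervals cover counting error only. Fewer of the phosphatase regions were gained than in the list as a whole, while the lost share was near that of the list. Among all regions that lie within 100 kb of a gene, as the phosphatase regions do by their rule, 37.0% were gained and 29.4% lost. Within 25 kb of the gene in place of 100 kb the gained count was 28.

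Gained and lost shares differed by position. Regions with the summit within 1 kb of either end of a gene made up 43.5% of phosphatase regions at D5, 39.1% in D7 control and 39.2% in D7 GLI1, against 31.9%, 31.5% and 29.6% of all regions. Among those near an end, 3 of 65 phosphatase regions were gained (4.62%, 1.58 to 12.7, against 12.0%) and 4 of 66 lost (6.06%, 2.38 to 14.6, against 6.86%). Farther away, 42 of 101 were gained (41.6%, 32.5 to 51.3, against 49.0%) and 50 of 103 lost (48.5%, 39.1 to 58.1, against 41.3%). In each of these 4 classes the interval of the phosphatase share holds the value of all regions, but each rests on fewer regions. The gained share lay below that of all regions at both positions, the lost share only near an end. Whether position accounts for the lower gained share was not tested.

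**Figure D2:**
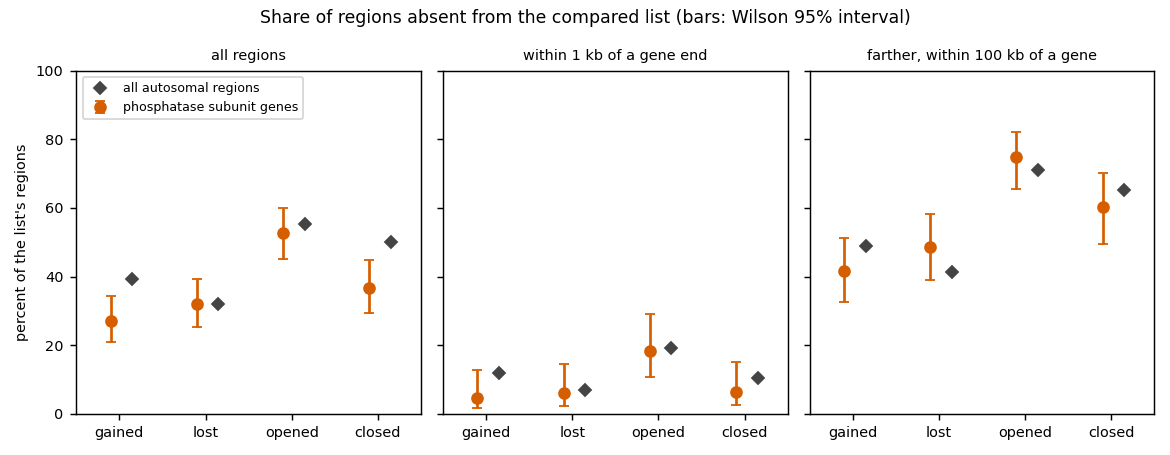
Percent of regions absent from the compared list (gained, lost, opened, closed), for phosphatase genes (circles with Wilson 95% intervals) and all autosomal regions (diamonds), over all regions and split at 1 kb from a gene end. Over all regions the gained (27.1%) and closed (36.7%) circles sit below their diamonds with intervals that do not reach them. Those diamonds include regions more than 100 kb from any gene, which the panel farther from an end leaves out. Within 100 kb of a gene the values of all regions were 37.0% gained and 45.2% closed. The upper limits of the phosphatase intervals were 34.3% and 44.8%. In both position panels, which hold fewer regions each, every interval spans its diamond.

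Most gained and lost regions had low folds. Gained phosphatase regions had a median fold of 3.86 in the GLI1 list (all gained regions 3.86) and lost ones 3.78 in the control list (all lost 3.96), while the 121 GLI1-list regions shared with control had a median of 11.4 and the 115 control regions shared with GLI1 had 13.5. A fold of 10 or more was reached by 3 of the 45 gained regions, against 636 of 16533 over all autosomal regions. Of the 54 lost regions 1 reached it, against 326 of 12104. Of the gained regions 19 lay inside their gene, farther than 1 kb from an end, and 23 outside it at a median of 29.3 kb. Of the lost regions 22 lay inside and 28 outside at a median of 24.7 kb. These positions are not set beside those of all gained and lost regions. By gene, 16 of the 72 had more gained than lost regions (22.2%, against 32.2% of all genes with a region) and 19 more lost than gained (26.4%, against 19.1%), with 37 even.

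**Figure D3:**
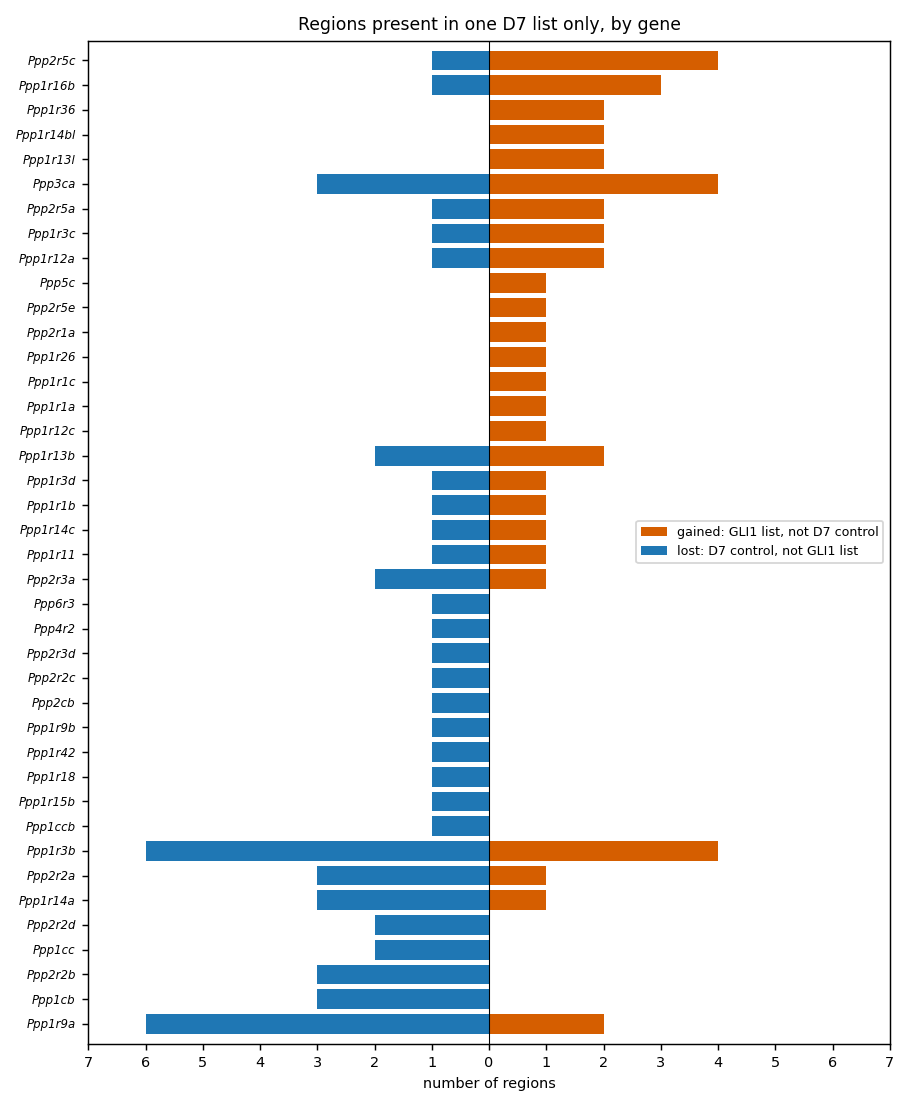
Number of gained regions (GLI1 list, not D7 control; bars to the right) and lost regions (D7 control, not GLI1 list; bars to the left) for each phosphatase gene with at least one. Ppp2r5c, with 4 gained and 1 lost, is at the top and Ppp1r9a, with 2 gained and 6 lost, at the bottom.

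By subunit class these counts rest on few regions each, and are set beside the 39.2% gained and 31.9% lost of all regions. No region was gained at the 4 PP1 catalytic genes and 6 of their 10 control regions were lost (60%), 3 of them at Ppp1cb and 2 at Ppp1cc. The B genes of PP2A had 1 gained of 8 GLI1-list regions (12.5%) and 9 lost of 15 control regions (60%), spread over Ppp2r2a, Ppp2r2b, Ppp2r2c and Ppp2r2d. The B' genes of PP2A had 7 gained of 18 (38.9%, near the share of all regions), mainly at Ppp2r5c and Ppp2r5a, and 2 lost of 12 (16.7%). The 40 PP1 regulatory genes had 30 gained of 92 (32.6%) and 28 lost of 90 (31.1%), calcineurin 4 of 14 and 3 of 13, the B'' genes 1 of 7 and 3 of 8, PP4 0 of 9 and 1 of 9, and PP6 0 of 4 and 1 of 5. The PP2A catalytic genes had 0 gained and 1 lost, its scaffold genes 1 gained and 0 lost, and PP5 1 gained and 0 lost. No difference between classes was tested.

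The gained region with the highest −log10 q lay in Ppp2r5c, which encodes a B' subunit of PP2A known for its part in the DNA damage response and in cell division. That region (chr12:110519779-110521079, 1301 bases) had a fold of 33.7 in the GLI1 list and no counterpart in D7 control or D5, and it lay inside the gene, 34.6 kb past the nearest listed start. The folds of the 2 start regions of Ppp2r5c stood side by side at 38.9 in D7 control and 40.2 in D7 GLI1 for the outer one, and at 14.2 and 18.96 for the inner one. A region 8.59 kb beyond the gene in D7 GLI1 had 37.4, its D7 control counterpart 39.8 and its D5 counterpart 12.9. Ppp2r5c gained 3 more regions, all inside the gene and weak (4.39, 3.86 and 3.34), and lost 1 (3.60). The next nearest gene to the strong region, Dync1h1, was 81.0 kb away.

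**Figure D4:**
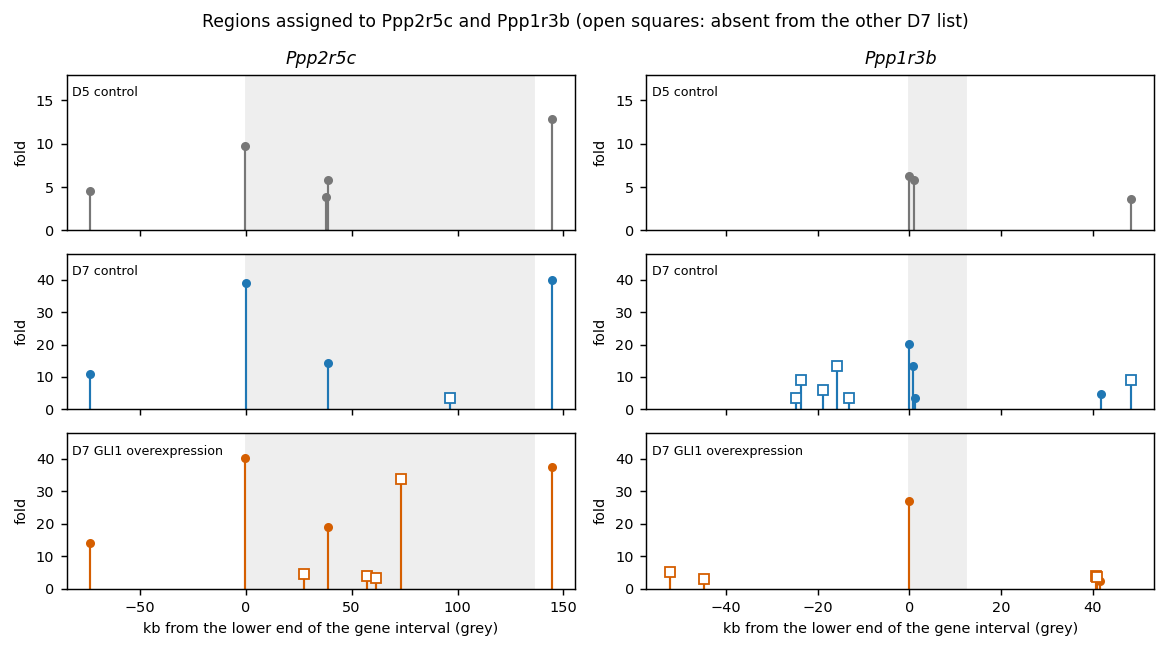
Fold of each region assigned to Ppp2r5c (left) and Ppp1r3b (right) in the 3 lists against its distance in kb from the lower end of the gene interval, which is shaded; the D5 panels have their own vertical scale, and open squares mark regions absent from the other D7 list. The GLI1 panel of Ppp2r5c has an open square at 33.7 inside the gene, and the D7 control panel of Ppp1r3b a group of 5 open squares below the gene.

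The next 2 gained regions lay far from the genes they are counted under. One (chr1:191458355-191459493, fold 19.1) lay 61.9 kb upstream of Ppp2r5a, with Dtl 78.4 kb away on the other side, and a weaker gained region beside it (chr1:191462142-191462535, fold 4.21) overlapped a D5 region of fold 5.43. Without regions beyond 25 kb the gained minus lost count of Ppp2r5a was -1 in place of 1. The other (chr1:23187484-23188290, fold 19.7) lay 85.9 kb from Ppp1r14bl, whose own start had no peak. Ppp3ca, a catalytic subunit of calcineurin, had the next 2, both with a fold of 6.14: chr3:136707601-136708049 inside the gene, which overlapped a D5 region of fold 6.34, and chr3:137011601-137012210, 74.0 kb outside. Ppp3ca had 4 gained and 3 lost regions in all. Ppp1r16b had 3 gained and 1 lost, all with folds from 2.63 to 4.32, and Ppp1r36 and Ppp1r13l, which encodes an inhibitor of p53, had 2 gained and 0 lost each. The gained minus lost count was 0 for Ppp1r16b and Ppp1r13l with a −log10 q of at least 5, and 0 for Ppp1r36 within 25 kb.

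Ppp1r3b, the glycogen-targeting subunit of PP1 known from liver, and Ppp1r9a each held 6 of the 54 lost regions. Below Ppp1r3b, within 24.6 kb of the gene, D7 control held 5 regions that the GLI1 list lacked: chr8:35359022-35359999 with a fold of 13.5, chr8:35351746-35352378 with 9.001, and 3 others with 5.94, 3.60 and 3.42. A sixth, chr8:35423688-35424329 on the other side, had 9.18 and overlapped a D5 region of fold 3.63. The GLI1 list had 4 regions of its own there, of folds 5.09, 3.86, 3.69 and 2.81, none of them within 25 kb of the gene. At the end of Ppp1r3b the shared region had 6.22 at D5, 20.2 in D7 control and 27.0 in D7 GLI1. Within 25 kb the balance was therefore 0 gained and 5 lost.

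Ppp1r9a, a gene of 263 kb, lost 6 of 11 control regions and gained 2. Its strongest lost regions were chr6:5093384-5094099 (fold 9.001) and chr6:5054494-5054989 (fold 8.64), both inside the gene. At Ppp1cb all 3 lost regions lay upstream, 41.7, 36.4 and 17.1 kb from the gene, with folds of 7.02, 7.74 and 3.96, and another, 46.2 kb upstream, was shared at 9.90 in control and 3.34 with GLI1. Ppp2r2a, a B subunit of PP2A, lost chr14:67116203-67116778 (fold 9.18, 44.0 kb outside) and 2 others, 28.7 and 63.7 kb outside (folds 6.48 and 3.06), so that within 25 kb its gained minus lost count was 1 in place of -2. Ppp2r2b, a B subunit known from brain, lost 3 regions with folds of 7.02, 3.42 and 3.06, and 2 of its shared regions had 14.0 and 13.5 in control against 4.21 and 6.67 with GLI1, while 2 others had 4.32 and 5.58 against 8.07 and 13.5. The start peaks of Ppp1r9a and Ppp1cb, by contrast, were in every list.

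Few of the gained regions had been open at D5. Of the 45 gained regions 4 overlapped a D5 region (8.89%, 3.51 to 20.7, against 13.3% of all gained regions), at Ppp3ca, Ppp2r5a, Ppp1r13l and Ppp1r9a. Of the 54 lost regions 6 did (11.1%, 5.19 to 22.2, against 8.83%). Both shares lie near those of all regions. With a minimum −log10 q of 5 the share of gained regions was 2.78%. The D5 list has lower −log10 q values (median 6.32, against 14.4 in D7 GLI1), so this limit is not alike between the lists. The gained one at Ppp1r9a (chr6:4902707-4902991, fold 3.51) is 182 bases upstream of the start, next to a shared start region. Missing peak numbers of D7 control lay beside 2 gained regions (4.44%, against 2.06%), both at Ppp1r3c, and no lost region lay beside a missing number of the GLI1 list (0%, against 1.78%).

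From D5 to D7 without doxycycline, phosphatase genes had 89 new and 54 vanished regions, a surplus that was not there in lists of equal length. A D7 control region without a D5 counterpart is called opened and a D5 region without a D7 control counterpart closed. In D7 control 89 of 169 regions were opened (52.7%, 45.2 to 60.0, against 55.4% of all), and at D5 54 of 147 were closed (36.7%, 29.4 to 44.8, against 50.1%). Among all regions within 100 kb of a gene the opened share was 53.1% and the closed share 45.2%. Near a gene end 12 of 66 were opened (18.2%, 10.7 to 29.1, against 19.2%) and 4 of 64 closed (6.25%, 2.46 to 15.0, against 10.3%). Farther away 77 of 103 were opened (74.8%, 65.6 to 82.2, against 70.9%) and 50 of 83 closed (60.2%, 49.5 to 70.1, against 65.2%). These counts moved with the thresholds: with peaks of a −log10 q of at least 5 only, the closed count fell to 18, and with lists of equal length the opened count was 58 and the closed count 57. The −log10 q limit was not alike for the lists, whose medians were 6.32 at D5 and 16.5 in D7 control. By gene, 30 of 72 had more opened than closed regions (41.7%, against 34.1%) and 15 more closed than opened (20.8%, against 26.9%).

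**Figure D5:**
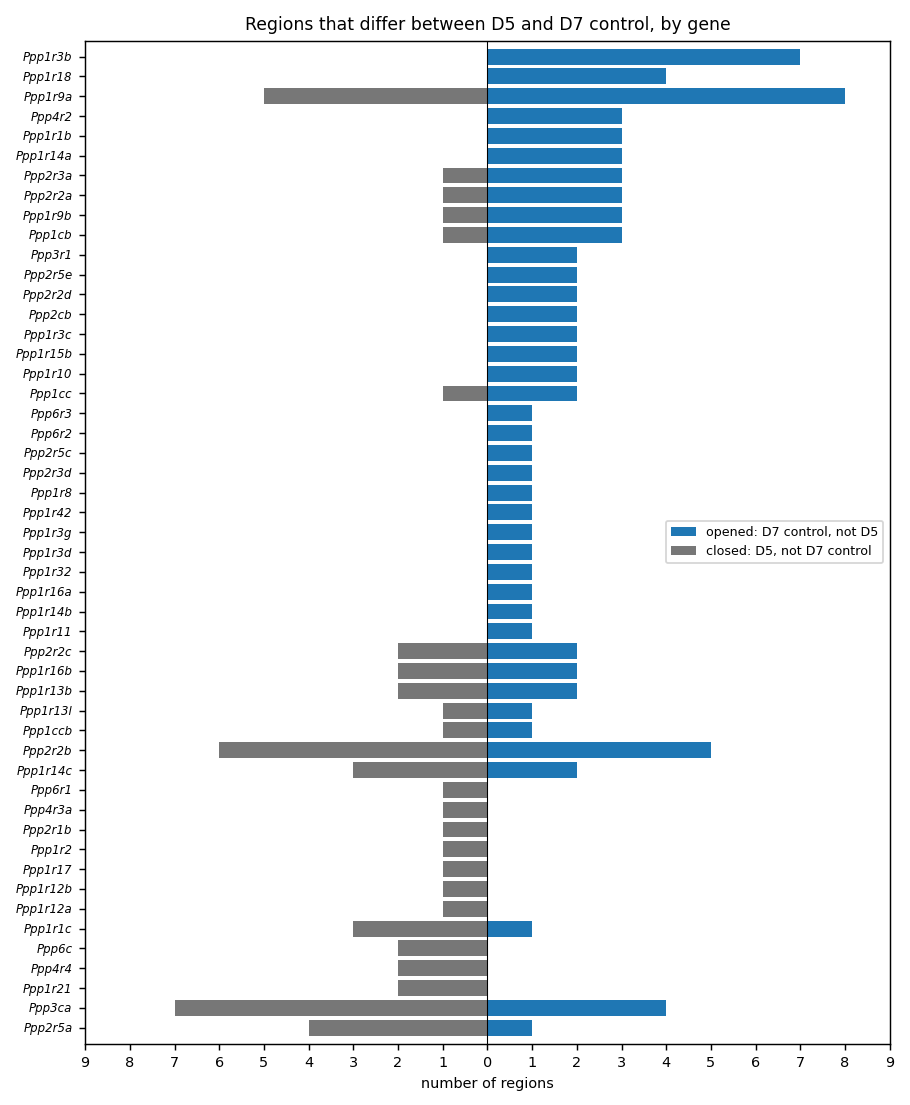
Number of opened regions (D7 control, not D5; bars to the right) and closed regions (D5, not D7 control; bars to the left) for each phosphatase gene with at least one. Ppp1r3b, with 7 opened and 0 closed, is at the top; Ppp3ca, with 4 and 7, and Ppp2r5a, with 1 and 4, are at the bottom.

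The strongest opened region was in Ppp1r18, which encodes an actin-associated PP1 subunit. It lay 2.99 kb past the nearest listed start (chr17:35868836-35870059) with a fold of 29.5 in D7 control and 19.1 in D7 GLI1, and Ppp1r18 had 4 opened and 0 closed regions in all. Next came Ppp1r10 (chr17:35918415-35919295, 15.8 and 14.2), Ppp2r5e, a B' subunit (chr12:75599284-75600115, 14.9 and 12.3), a region 0.55 kb from the end of Ppp2r2c (chr5:36955351-36956099, 14.6 and 7.37) and 1 inside Ppp2r2b (14.0 and 4.21). All 5 were also present with GLI1. Ppp1r3b had the most opened over closed regions, 7 and 0, and 5 of those 7 are among the regions lost with GLI1. Ppp1r14a had 3 and 0, Ppp1r1b, which encodes the PP1 inhibitor DARPP-32, 3 and 0, Ppp4r2 3 and 0, and Ppp1r9a 8 and 5. With lists of equal length the opened minus closed count of Ppp1r14a was 0. Within 25 kb of the gene that count was 1 for Ppp4r2 and 1 for Ppp1r9a.

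Leaving out Ppp6c, the closed regions with the highest −log10 q were chr6:5005641-5005854 in Ppp1r9a (D5 fold 9.63), chr16:31235480-31235781 near Ppp1r2, the gene of PP1 inhibitor 2 (7.81), chr6:56017395-56017569 at the end of Ppp1r17 (7.90) and chr6:5165898-5166044 beside Ppp1r9a (7.99). Ppp1r17, an inhibitor known from cerebellum, had no other region in any list. Ppp3ca had the most closed regions, 7, with folds from 3.49 to 6.34, and 4 opened ones. With a −log10 q of at least 5 its opened minus closed count turned from -3 to 1. That limit falls on lists of unlike −log10 q, with medians of 6.32 at D5 and 16.5 in D7 control. Ppp2r5a had 4 closed and 1 opened, Ppp1r1c, an inhibitor of PP1, 3 and 1, and Ppp1r21 and Ppp4r4 2 and 0 each. Closed phosphatase regions had a median width of 154 bases, against 260 for all D5 phosphatase regions. Closed regions were also narrower over the whole D5 list, with a median of 177 bases against 238 for all its autosomal regions. Missing D7 control peak numbers lay beside 2 of the 54 closed regions (3.70%, against 5.81%), both at Ppp6c.

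The 10 Ppp genes over 100 kb held 43 of the 166 GLI1-list regions, 44 of the 169 D7 control regions and 46 of the 147 D5 regions. Of these, 15 were gained (34.9%, against 39.2% of all regions), 17 lost (38.6%, against 31.9%), 25 opened (56.8%, against 55.4%) and 24 closed (52.2%, against 50.1%). At the 66 shorter genes 24.4% were gained, 29.6% lost, 51.2% opened and 29.7% closed. Ppp3ca (268 kb), Ppp1r9a (263 kb) and Ppp2r2b (414 kb) are among the 10 genes over 100 kb, and Ppp1r3b, at 12.4 kb, is not. Ppp2r3d counts regions that lie far from it: its 3 D7 control and 2 D7 GLI1 regions lay 33.4 to 50.6 kb away, with a fold of up to 69.3 in D7 GLI1. Genes known only from predicted transcripts were not among the 21027 used.

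Genes of related phosphatases and partners were counted in the same way, from lists chosen by function, and all 58 matched. The 18 PPM family genes, the magnesium-dependent phosphatases, had 18 of 45 GLI1-list regions gained and 12 of 40 control regions lost, with Ppm1h (8 and 6) and Phlpp1 (4 and 0) as examples. The 12 PP1 partner genes had 21 of 45 gained and 11 of 34 lost, mainly at the actin-binding Phactr1 (6 and 2) and Phactr2 (7 and 4). The 16 partners of PP2A, PP4 and PP6 had 11 of 35 gained and 6 of 30 lost. The 12 genes of calcineurin partners and NFAT had 12 of 40 gained and 14 of 43 lost, with Nfatc1, the NFAT gene known from heart valves, at 5 and 3 and Nfatc2 at 3 and 6. From D5 to D7 control these lists had 20 opened of 40 and 30 closed of 52 D5 regions (PPM), 13 of 34 and 9 of 30 (PP1 partners), 13 of 30 and 8 of 29 (PP2A, PP4 and PP6 partners) and 18 of 43 and 11 of 39 (calcineurin partners and NFAT). In percent, gained shares were 40.0, 46.7, 31.4 and 30.0 for PPM genes, PP1 partners, PP2A partners and calcineurin partners in turn, beside 27.1 for the Ppp genes and 39.2 for all regions. The lost shares were 30, 32.4, 20 and 32.6 in the same order, beside 32.0 and 31.9. The opened shares were 50, 38.2, 43.3 and 41.9, beside 52.7 and 55.4, and the closed shares 57.7, 30, 27.6 and 28.2, beside 36.7 and 50.1.

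Markers of cell types were read as a region within 1 kb of the gene. Of 7 cardiac progenitor genes, 6 had a region at D5, 7 in D7 control and 5 in D7 GLI1, where Nkx2-5 and Tbx5 had none. Pluripotency genes had one at 2, 1 and 1 of 4: Pou5f1 and Nanog, which define pluripotent cells, had none in any list, Sox2, also a neural gene, had one in each (folds 7.77, 25.7 and 16.9), and Zfp42 had 2 at D5 only (highest fold 11.9). The 4 neural genes had a region in every list, as had 2 of 3 endoderm genes, and endothelial genes had one at 3, 4 and 3 of 4 and skeletal muscle genes at 2, 3 and 3 of 3. An open region at a marker does not show that the gene is used, and the part of other cell types in the results was not tested.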

How the data were processed

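The deposited data are 3 ATAC-seq peak lists, 1 per group, so that libraries of a group are pooled. Per the submitters' processing notes, build mm10 was used with MACS2 2.1.1, Picard, SAMtools 1.5 and Bowtie2 2.3.2; their roles are not given. The fold enrichment of each peak is a ratio made by the authors' peak caller; the authors also deposited a −log10 p and a −log10 q per peak, a score equal to the whole part of 10 times the −log10 q (but for 1 D5 peak), and where in the peak its summit lies, in bases. Read totals were not used here, so depth is unknown.

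Overlapping peaks were merged, and each region was placed by the summit of its peak with the highest −log10 q against 21027 RefSeq protein-coding genes with a curated transcript, with Python 3.11.15, pandas and numpy. A summit inside more than 1 gene went to the gene with the nearest end (1 member peak at D5, 3 in D7 control, 1 in D7 GLI1). Shares carry Wilson 95% intervals. The procedure was tested on simulated lists. The members, gene lists and tests were chosen with earlier results of these data known. Named genes are the catalytic and scaffold genes, the 10 with the most D7 regions, the 6 at each end of gained minus lost and of opened minus closed, and those of the 5 gained, lost, opened and closed regions with the highest −log10 q; further genes are named as members of a count or range and were chosen after their values were seen. No genome sequence was used, so sequences of the regions are not shown.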

Additional observations from a re-analysis of the deposited data

How the results depend on the processing

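Each of the 5 results (the gained, lost, opened and closed counts and the D5 share of gained regions) was recomputed under 5 alternatives. Adding genes with predicted transcripts only was chosen after seeing the data, as was leaving out regions beside a missing peak number, which was run for the gained, lost and closed counts only (43, 54 and 52). Requiring an overlap of at least 50% of the shorter region, taking the nearest gene end, and adding genes kept each count within 1.5 times and the share within its interval, as leaving out regions did for the 3 counts it covered. With a minimum −log10 q of 5, the closed count was 18 in place of 54 and the D5 share of gained regions 2.78% in place of 8.89%. The −log10 q values of the D5 list had a lower median than those of the D7 lists, so this limit is not alike between lists. With lists of equal length the opened count was 58 in place of 89, and within 25 kb of the gene the gained count was 28 in place of 45. The cause was not tested; fewer peaks enter by construction. The gained and closed shares at phosphatase genes were below those of all regions under all 8 settings, the main one included (gained 20.3% to 29.5%, against 34.0% to 40.8%), where the limit of 25 kb restricts the phosphatase regions only. With all regions also held to 25 kb, gained was 20.3% against 35.1% and closed 34.6% against 40.8%. Of 74 differences of single named genes, 74, 45, 59, 58, 69, 71 and 73 stayed within 1.5 times under 50% overlap, −log10 q, equal length, 25 kb, nearest end, added genes and missing numbers in turn. Signs turned for opened minus closed at Ppp2r2b (2 with −log10 q of at least 5 and 3 by nearest gene end, in place of -1) and Ppp3ca (1 with −log10 q of at least 5), and within 25 kb for gained minus lost at Ppp2r2a (1 in place of -2) and Ppp2r5a (-1 in place of 1). No paired analysis was possible because the lists pool the numbered libraries, which also prevented leaving one out.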
